A study of Drosophila melanogaster with 36 samples.

Results

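A group of 146 genes, of 14010 genes in the deposited 3′ RNA-seq table, had lower levels in the heads of *Drosophila melanogaster* at each warmer of 3 temperatures. For each gene the median over 6 time points was taken within each temperature (18, 25 or 29°C) and 1 was added. A gene was a member if the 18°C value was at least 1.4 times that at 25°C, the 25°C value was at least 1.4 times that at 29°C, and the 18°C value was at least 10. The 7 genes of a cluster of retinin-like genes on chromosome arm 3L that also met the ratios were left out by the rule. The genes were thus chosen by their median levels at the 3 temperatures, and these are given below as a description with no test of temperature on them.

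The flies were of the wild-type strain Canton-S and had been entrained at one of these temperatures. RNA came from whole heads collected at ZT3, ZT7, ZT11, ZT15, ZT19 and ZT23, where ZT (zeitgeber time) counts hours from lights on. Sex and age are not given in the sources used here, and no mutant, transgene or drug was part of the comparison. The labels list 36 libraries, 2 per temperature and time point, but the table holds 1 column for each combination, 18 in all, so no value below carries a replicate error and the 6 time points of a temperature are the only spread. A whole head mixes epidermis with its cuticle, eye, brain, fat body and some muscle, and in such a sample fewer cells of a type and less RNA per cell cannot be told apart.

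The insect cuticle is the extracellular coat made by epidermal cells. It is built of chitin, a polymer of N-acetylglucosamine, and of many structural proteins, among them the large RR family, which binds chitin. In adult flies cuticle goes on being deposited after eclosion in daily layers. The corneal lens of the eye is a specialised cuticle. Genes of this apparatus made up the most abundant recognisable part of the 146, beside genes for muscle proteins, the proteasome, storage proteins and the *period* locus.

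The depth of the columns was modest and uneven. Between 736651 and 2749962 reads fell on genes, the shallowest columns being 18°C ZT19 and 18°C ZT23. The 29°C ZT19 column stood apart, with 10986 genes detected against 8846 to 9849 in the others and a testis marker sum of 212 normalised reads against at most 5.09 elsewhere. The sum of 27 midgut markers was 9500 in the 25°C ZT7 column and 2869 in one 29°C column, against 213 to 272 at 18°C. None of the 146 genes belongs to the lists of testis, accessory gland, midgut, yolk or blood cell markers. Of these lists only 8, 7, 21, 4 and 6 genes passed a filter on low values, among 8791 genes that did. The absence of members from them therefore says little about foreign tissue. All 15 photoreceptor and neuron markers were detected at each temperature, with sums of 29700 to 35570 at 18°C, 35560 to 47080 at 25°C and 39260 to 50610 at 29°C.

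Together the 146 genes gave 1.32% to 2.44% of the signal at 18°C, 0.932% to 1.56% at 25°C and 0.275% to 0.806% at 29°C. The 18°C columns overlapped neither the 29°C columns nor, with the 18°C ZT15 column excepted, the 25°C columns. Single genes differed widely in size. The ratio of 18°C to 25°C had a median of 1.79 and ran from 1.402 to 90.4, that of 25°C to 29°C had a median of 1.64 and ran from 1.403 to 5.07, and that of 18°C to 29°C had a median of 3.09 and ran from 2.02 to 447. The corresponding medians over the 8791 genes that passed a filter on low values were 1.00, 0.971 and 0.983, and all 146 members passed that filter. The first step was the larger in 88 genes (60.3%, against 52.3% of all genes that passed the filter).

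**Figure D1:**
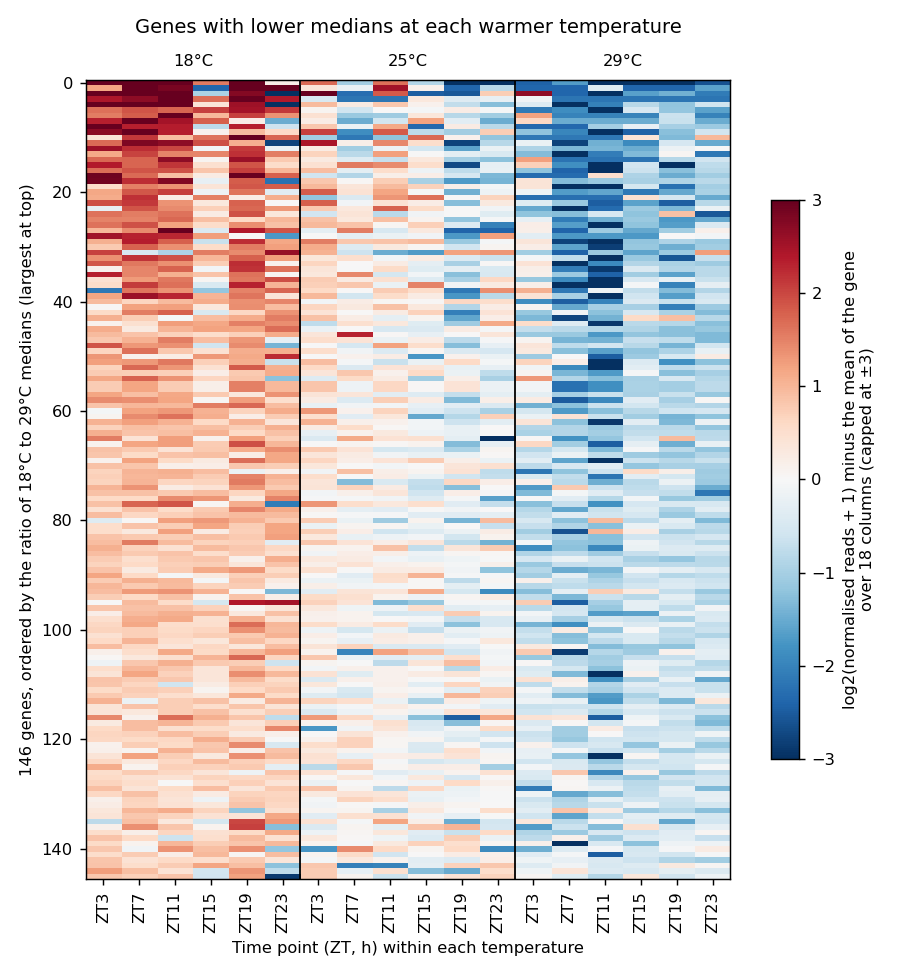
Level of each of the 146 genes (rows) in each of the 18 columns, as log2(normalised reads + 1) minus the mean of the gene over the columns; red is above and blue below that mean. Rows are ordered by the ratio of the 18°C to the 29°C median, from 447 at the top to 2.02 at the bottom, and the 29°C ZT7 and ZT11 columns are the darkest blue in the upper rows.

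The heat map shows the single columns behind the medians. The level was ordered 18°C over 25°C over 29°C at all 6 time points in 30 of the 146 genes (0.876% of all tested). It was so ordered at 5 in 38 (1.77%), at 4 in 40 (3.84%) and at 3 or fewer in the rest. The order was most frequent at ZT11, in 123 genes (19.1% of all tested), and least frequent at ZT23, in 97 (18.3%). All 6 values at 18°C lay above all 6 at 29°C in 76 genes, where 5.82% of all tested genes had no overlap in that direction. For 18°C above 25°C this held for 30 genes (4.12% of all tested) and for 25°C above 29°C for 19 (2.87%). Since the rule used these levels, the excess over the background follows from the choice of the genes.

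Only 9 genes kept the 3 temperatures apart in every column (0.148% of all tested genes). They were *Cys*, *CG15313*, *CG13315*, *Zasp66*, *Mlc2*, *pr*, *CG32425*, *CG9747* and *CG10553*. *Cys* encodes a cystatin-like inhibitor of cysteine proteases. Its normalised reads from ZT3 to ZT23 were 2151, 2871, 2483, 2321, 3339.8 and 2858 at 18°C. They were 1719, 1895, 1814, 2091, 1952 and 1849 at 25°C and then 1349, 1034, 1163, 1663, 1161 and 1275 at 29°C. Its highest 29°C value, at ZT15, lay just below the lowest at 25°C, at ZT3. *CG13315*, of unknown function, ran from 914 to 1267 at 18°C, from 515 to 749 at 25°C and from 298 to 363 at 29°C. *pr* encodes an enzyme of eye pigment (pteridine) synthesis, and its 18°C values of 259 to 416 lay above those of 172 to 254 at 25°C and 88.3 to 149 at 29°C.

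**Figure D2:**
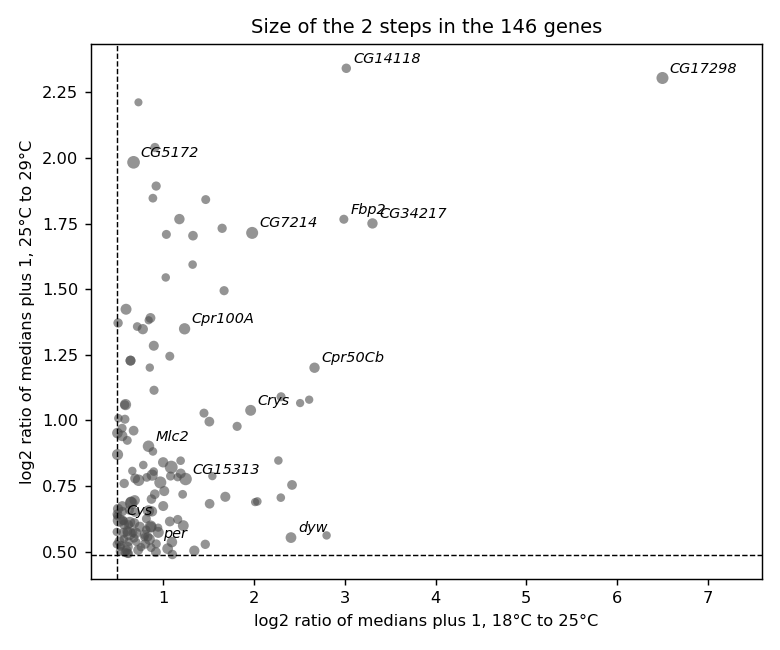
Each point is 1 of the 146 genes, placed by the log2 ratio of its medians plus 1 at 18°C to 25°C (horizontal) and 25°C to 29°C (vertical); the area of a point grows with the 18°C median and the dashed lines mark the ratio of 1.4 that the rule required. *CG17298* lies alone at the right, with a first ratio of 90.4 and a second of 4.94, while most genes lie near the lower left corner.

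The plot of step sizes shows a dense corner and a long tail. Both ratios were at least 2 in 21 genes (0.319% of all tested), and the 18°C to 29°C ratio was at least 10 in 11 (0.205%). Just inside the limits, *CG32121* and *Clp* had a first ratio of 1.402, *CG13587* and *CG30062* had a second ratio of 1.403 and 1.406, and *Osi9* and *Cyp6d4* had an 18°C median plus 1 of 10.3 and 10.9 normalised reads. Just outside, *akirin* and *tkv* had first ratios of 1.394 and 1.392, *CG5151* and *Rpt2* a second ratio of 1.398 and 1.393, and *ktub* and *Orc1* an 18°C value of 9.88 and 9.61. The edge of the group is thus a matter of small differences, and only 71 of the 146 genes met the rule in each of 18 repeats that left out 1 column.

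Cuticle proteins were the first of the functional groups. They comprised 9 members: *Acp1*, *Cpr100A*, *Cpr49Ae*, *Cpr50Cb*, *Cpr49Aa*, *Cpr62Bb*, *Ccp84Ab*, *Vajk1* and *Vajk2*. Their summed level ran from 2557 to 5245 normalised reads at 18°C, from 2048 to 2833 at 25°C and from 221 to 1837 at 29°C. *Acp1*, a structural protein of the adult cuticle (2L, 7740552 to 7741542, dm3), was the most abundant. It measured 1809, 3109.5, 2220.4, 1774, 3616 and 2695 from ZT3 to ZT23 at 18°C. The values at 25°C were 1867, 1066, 1502, 1638, 1788 and 1444, and those at 29°C were 1062, 549, 116, 1516, 891 and 1235. The 18°C and 25°C ranges overlapped slightly, and the 29°C ZT11 value was far below the other 5.

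*Cpr100A*, an RR family protein, had 285, 568, 428, 244, 483 and 389 normalised reads at 18°C. It had 357, 127, 202, 171, 110.2 and 175 at 25°C and 191, 54.2, 22.7, 75.1, 59.6 and 80.4 at 29°C. At 25°C and 29°C alike the ZT3 column was the highest. *Cpr49Ae*, of the same family, ran from 213 to 320.2 at 18°C and from 43.9 to 68.2 at 29°C. Of its 25°C columns 5 lay between 124 and 191 and the ZT7 column, the one with the high midgut sum, stood at 732. *Vajk2*, a cuticle protein, ran from 216 to 633 at 18°C, 171 to 333 at 25°C and 24.2 to 156 at 29°C. *Ccp84Ab*, another RR protein, had medians of 64.8, 35.3 and 12.9 and was at 0 at 29°C ZT11. *Cpr50Cb* (2R, 9682308 to 9692741) had the largest ratio among cuticle proteins, 14.6, with 201.4, 142, 158, 20.5, 94.3 and 0 at 18°C, 5.75 to 30.7 at 25°C and 0 to 11.53 at 29°C. Its 18°C values were thus high at 4 time points, low at ZT15 and absent at ZT23.

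Of 129 cuticle protein genes measured, 51 passed the filter, and the 42 that were no members were called by limma as follows. Between 18°C and 29°C 20 were higher and 2 lower at the cooler temperature, where 13.3% of all genes tested were higher and 14.6% lower. Between 18°C and 25°C 7 were higher and 2 lower (8.07% and 5.32% of all genes), and between 25°C and 29°C 5 were higher and 3 lower (6.69% and 10.6%). Their median log2 difference between 18°C and 29°C was 0.82, against −0.06 over all genes tested. Their summed level, 2921 to 3764 at 18°C, 2249 to 4080 at 25°C and 2583 to 4134 at 29°C, did not separate the temperatures.

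Chitin-related and apical matrix genes formed the second group, with 11 members. They included the chitin deacetylases *verm* and *Cda5*, the chitinase *Cht5*, *CG15313*, which RefSeq assigns to the chitinase gene *Cht6*, and the chitin-binding proteins *obst-A*, *obst-B* and *Peritrophin-A*. RefSeq assigns another measured gene entry to *Cht6* as well, and the values of that entry are not given here. The summed level was 1634 to 3132 at 18°C, 822 to 1123 at 25°C and 423 to 739.6 at 29°C, with no overlap between temperatures, and *CG15313* made up most of it. *CG15313* (X, 9943758 to 9944448) had 1875, 1038, 1756, 2014, 1959 and 2778 normalised reads at 18°C, 766, 873, 624, 644, 1029.6 and 850.3 at 25°C. Its 29°C values were 529, 494, 478, 465, 363 and 395. Levels of the others were lower and their ranges wider.

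*verm* had medians of 85.4, 41.9 and 24.9 normalised reads at the 3 temperatures, and its 25°C ZT3 column, at 86.4, reached the 18°C level. *obst-B* had medians of 58.5, 19.9 and 9.51, *obst-A* of 52.8, 17.9 and 10.8, and *Peritrophin-A* of 64.1, 29.97 and 19.2. *Cht5* had 62.8, 81.4, 49.3, 9.75, 18.0 and 13.8 at 18°C, 1.70 to 39.8 at 25°C and 0 to 5.59 at 29°C. In *obst-A* and *obst-B* the 29°C ZT11 column was at 0. The 14 other chitin genes tested, which do not include *Cht6*, did not share this order. In limma 5 were higher and 5 lower at 18°C than at 29°C, 4 higher and 3 lower at 18°C relative to 25°C, and 1 higher and 5 lower at 25°C than at 29°C. The summed level of the chitin genes of the list without the members was 4197 to 4937 at 18°C, 3899 to 4735 at 25°C and 5440 to 6332 at 29°C, so 29°C was the highest.

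*Crys* encodes crystallin, a protein of the corneal lens. Its 18°C values were 223, 258, 266, 124, 294 and 140.5 normalised reads. At 25°C they were 133, 56.8, 101, 62.4, 40.5 and 59.4, and at 29°C 29.6, 12.4, 7.56, 44.1, 28.7 and 38.5. Only the 18°C ZT15 column fell within the 25°C range, and no 29°C column except ZT15 reached it.

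**Figure D3:**
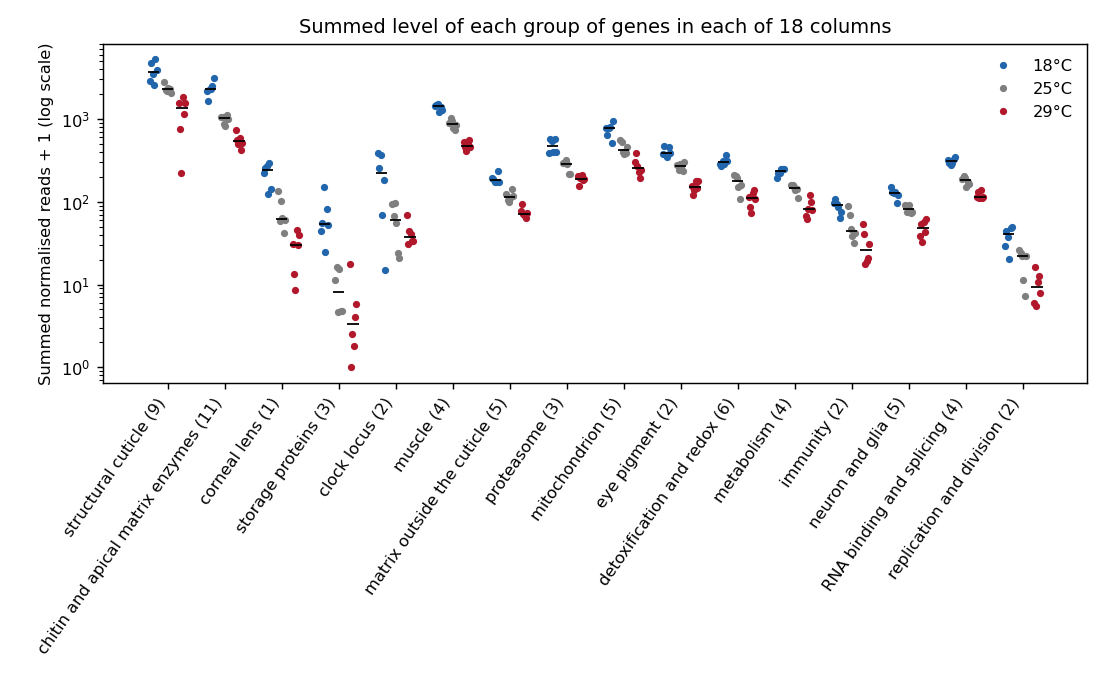
Summed normalised reads plus 1 (log scale) of each group of genes in each column, with the number of genes in parentheses; points are the 6 time points of a temperature and bars their median. The structural cuticle sum spans 221 to 1837 at 29°C, its lowest point being ZT11, whereas the muscle sum spans 410 to 562 there.

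The plot of group sums sets the cuticle beside groups with a narrower spread. Several of the most abundant members had no role that could be assigned. *CG31904* (2L, 7734411 to 7738795), the most abundant, had 3767, 6692, 4834, 3576, 7474 and 5572 normalised reads at 18°C, 3968, 2462, 3336, 3414, 3834 and 3074 at 25°C, and 2504, 1302, 174, 3043, 2047 and 2519 at 29°C. *CG8736* had medians of 4024, 1894 and 1071, and 124 at 29°C ZT11. *CG5172* had medians of 2737, 1718 and 434, with 608 at 18°C ZT15 and 24.2 at 29°C ZT11. The low 29°C ZT11 value seen in *Acp1* was thus shared by all 3.

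*CG31904*, *Acp1* and *CG7214* lie side by side on 2L within 10 kb of one another. *CG7214* (2L, 7743677 to 7744841) had the steepest profile of the 3, with 837 to 1508 normalised reads at 18°C, 176 to 314 at 25°C and 12.1 to 188 at 29°C. Other members within 10 kb of each other were *CG5172* with *CG12998*, *Vajk1* with *Vajk2*, *CG13722* with *CG11350*, *Peritrophin-A* with *obst-A*, *PGRP-LF* with *UGP*, *qkr58E-3* with *VepD*, *CAH9* with *gb*, *Arp1* with *NijC*, *mbt* with *CG9782*, *per* with *dyw* and, on the mitochondrial genome, *ND3* with *ND5*. The reads of *mbt* and *CG9782* were identical in every column, so these count as 1 signal that cannot be assigned. *ND3* and *ND5*, subunits of respiratory complex I, were also almost alike (362 and 355 median normalised reads at 18°C, 202 and 193 at 25°C, 128 and 111 at 29°C).

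Muscle proteins differed in how far the temperatures overlapped. The 4 members were *Mlc2*, a regulatory light chain of myosin, the Z-disc proteins *Zasp66* and *Actn*, and *tn*, a TRIM protein of muscle. Their sum was 1201 to 1505 at 18°C, 742 to 1024 at 25°C and 409.9 to 562 at 29°C. *Mlc2* had 449, 518, 494, 519, 462 and 580.4 normalised reads at 18°C, 332, 410.2, 285, 263, 237 and 281 at 25°C, and 149.9, 152, 129, 159, 159.6 and 121 at 29°C. *Zasp66* ran from 431 to 591, from 282 to 357 and from 148 to 225. *Actn* ran from 106 to 184, from 88.9 to 148 and from 38.7 to 80.6, so its 18°C and 25°C ranges overlapped. *tn* ran from 129.6 to 283, from 77.3 to 192 and from 69.6 to 148, and its 29°C ZT3 value of 148 lay above the 18°C ZT15 value of 129.6. Of the 12 other flight muscle genes tested, limma called 6 higher and 1 lower at 18°C than at 29°C, 1 higher and 1 lower at 18°C relative to 25°C, and 4 higher and none lower at 25°C than at 29°C. Their median log2 difference was −0.05 for 18°C minus 25°C and 0.57 for 25°C minus 29°C. The sum of the list without *Mlc2* was 6184 to 8188 at 18°C, 6004 to 11130 at 25°C and 3843 to 6455 at 29°C, and the part that the amount of muscle in a head sample played in these levels was not tested.

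The storage proteins and their relatives were low everywhere. *Lsp1gamma* is a larval serum protein subunit and *Fbp1* its receptor in the fat body, and *Fbp2* is a fat body protein. Their sum was 23.4 to 151 at 18°C, 3.68 to 15.3 at 25°C and 0 to 16.5 at 29°C. *Fbp2* had 23.7, 28.3, 73.4, 13.6, 38.2 and 23.03 normalised reads at 18°C, and between 0 and 4.75 in the 25°C columns. Among the 29°C columns it had 3.29 at ZT3 and was at 0 in the other 5. All 3 genes peaked at ZT11 among the 18°C columns. Of the 7 other storage and fat body genes tested, limma called 3 higher and 1 lower at 18°C than at 29°C, 2 higher and none lower at 18°C relative to 25°C, and 1 higher and 2 lower at 25°C than at 29°C.

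The remaining recognisable members were spread over housekeeping, metabolic and neural functions. The proteasome lid deubiquitinase *Rpn11*, the 20S subunit *Prosalpha5* and the proteasome-associated deubiquitinase *Uch-L5* summed to 389.7 to 579 at 18°C, 213 to 319.6 at 25°C and 153 to 207 at 29°C. *Rpn11* had medians of 238, 132 and 90.2 normalised reads. Among genes of metabolism, the desaturase family gene *CG9747* ran from 101 to 152, from 58.3 to 88.4 and from 29.4 to 53.1, and *Ldh*, lactate dehydrogenase, had medians of 34.7, 21.2 and 13.1. *Prx6b*, a peroxiredoxin, had medians of 147, 68.4 and 46.9. *Tig* (tiggrin), an integrin ligand of the extracellular matrix, had 92.3, 64.9 and 40.7. *PGRP-LF*, an inhibitory peptidoglycan recognition protein, had 60.4, 34.4 and 22.9, and *Hrb87F*, an hnRNP protein of RNA processing, 71.2, 46.4 and 32.1.

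The 3 largest ratios of 18°C to 29°C medians plus 1, 447, 41.0 and 33.2, belonged to *CG17298*, *CG14118* and *CG34217*, genes of unknown function, and were followed by *Fbp2* (27.01) and *Cpr50Cb* (14.6). *CG17298* (3R, 17108919 to 17109777) had 3159, 957, 1352, 67.2, 1185 and 25.3 normalised reads at 18°C, 73.9, 10.2, 71.8, 11.54, 1.27 and 0.959 at 25°C, and 3.29, 6.20, 0, 0, 0 and 2.80 at 29°C. Its 18°C range of more than an order of magnitude reached down into the 25°C range at ZT15 and ZT23. It lies within the span of *SIFaR*, a neuropeptide receptor gene on the opposite strand. *CG34217* had 198, 198, 155, 5.85, 87.5 and 0 at 18°C, 185, 1.70, 46.1, 1.36, 1.27 and 21.1 at 25°C, and 82.4, 1.55, 0, 3.27, 3.87 and 2.10 at 29°C. Its ZT3, ZT7 and ZT11 values followed the order of the temperatures, the ZT3 values being 198, 185 and 82.4, and those at ZT15, ZT19 and ZT23 did not. *CG14118* had 10.7, 51.6, 36.2, 0, 65.1 and 43.8 at 18°C, 0 to 28.6 at 25°C and 0 to 3.03 at 29°C. *CG34205* and *frm* had 18°C medians of 10.9 and 24.7 and 29°C medians of 0 and 1.46.

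Of the 146 genes, 50 overlap another gene of the table, among them *CG17298*, *pr*, *Vajk2*, *per* and *dyw*. The share of such genes over all genes tested was not computed. Whether reads were counted by strand is not given in the sources used here. In 74 genes (50.7%, against 22.5% of all genes tested) at least 1 of the 29°C columns held 3 reads or fewer. In 6 (4.11%, against 1.11%) all of them did, so their 29°C level was at the limit of what the depth could show. The members' median coding length was 1098 bases against 1323 over all genes tested.

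The time of day was not used by the rule and could be tested. No member passed an F test over the 6 time points in limma (Benjamini-Hochberg adjusted p under 0.05), where 0.319% of all genes tested did; 16 members had an unadjusted p under 0.05 (11%, against 7.08% of all genes), and edgeR and DESeq2 on recovered reads each called 2 members, of 52 and 58 genes in all. The clock genes *tim* and *vri*, which are no members, passed with adjusted p of 7.13e-04 and 0.00184 in limma. The smallest adjusted p among members was that of *per*, 0.063. Without the 29°C ZT19 column, limma called no gene at all for time of day, so *tim* and *vri* were not called either.

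*per* (*period*, X, 2579613 to 2586813) encodes the core clock protein that, with the product of *tim*, represses its own transcription. *dyw* (*daywake*, X, 2586764 to 2587919) encodes a protein of the takeout family and lies next to *per* on the opposite strand, the 3′ ends of both genes overlapping. Reads of this method lie near 3′ ends, and whether strands were counted apart is not known. Reads of either gene may therefore have been counted for the other, which was not tested. In flies *dyw* is known to be expressed at a higher level in the cold and to act against midday sleep. *per* had 26.1, 33.4, 35.3, 28.3, 13.5 and 4.61 normalised reads from ZT3 to ZT23 at 18°C, 10.2, 17.8, 17.5, 29.9, 8.87 and 2.88 at 25°C, and 4.94, 10.8, 22.7, 16.3, 7.75 and 5.59 at 29°C. It was highest at ZT11 at 18°C and 29°C and at ZT15 at 25°C. The ranges of the 3 temperatures overlapped, 25°C being the highest at ZT15 and 29°C at ZT23. Of the 7 other core clock genes tested, limma called none higher and 1, *Clk*, lower at 18°C than at 29°C.

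*dyw* had 360.1, 222, 329, 40.0, 168 and 9.21 normalised reads at 18°C. At 25°C it had 82.9, 48.3, 79.2, 23.8, 13.9 and 17.3, and at 29°C 62.6, 18.6, 21.2, 23.7, 24.8 and 26.6. At 18°C its level exceeded every 25°C value in 4 columns, namely ZT3, ZT7, ZT11 and ZT19, while at ZT23 it was the lowest of the 18 columns. The first step was thus large, 5.30, and the second small, 1.47.

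**Figure D4:**
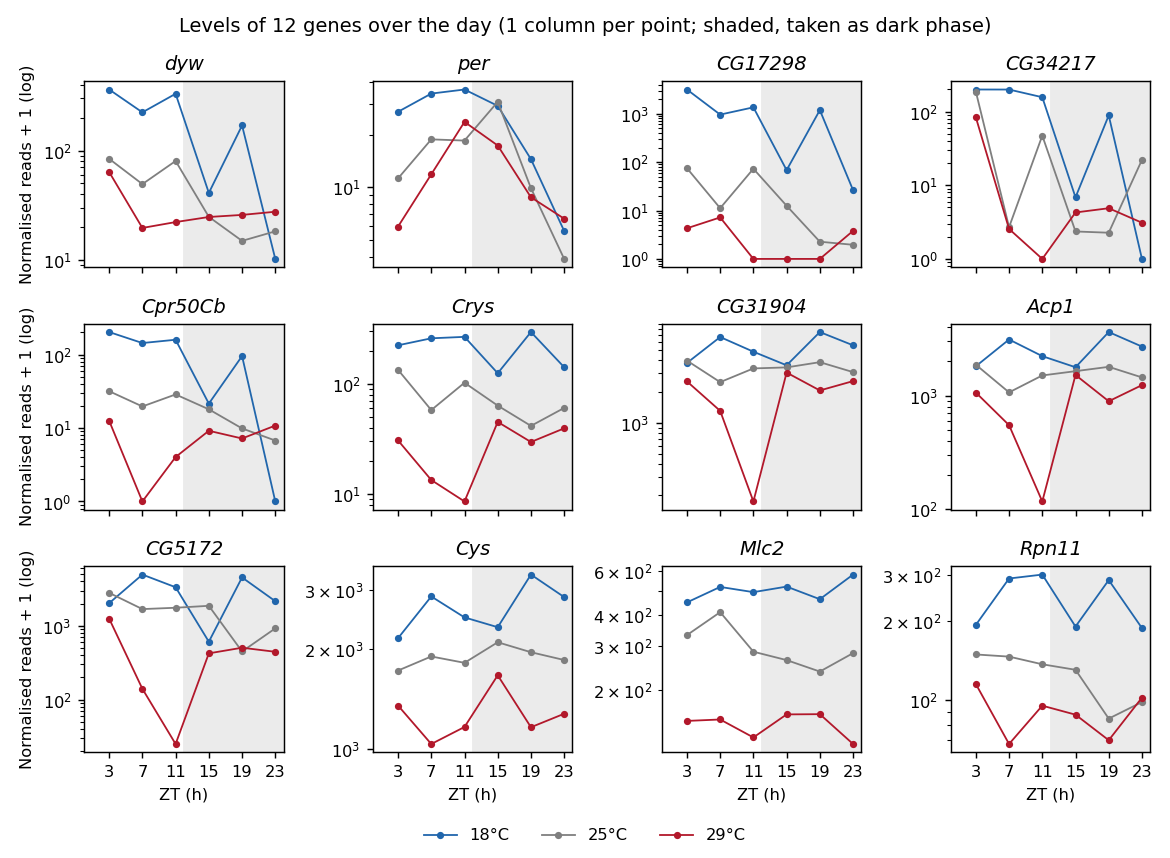
Normalised reads plus 1 (log scale) of 12 of the 146 genes against ZT at 18°C (blue), 25°C (grey) and 29°C (red), 1 column per point, with the hours taken as the dark phase shaded. *dyw* and *CG17298* are high at ZT3, ZT7, ZT11 and ZT19 and low at ZT15 and ZT23 at 18°C, whereas *CG31904*, *Acp1* and *CG5172* reach their lowest point at 29°C ZT11.

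The time courses show these patterns for 12 members. In the equal light and dark phases of the entrainment, ZT3, ZT7 and ZT11 fell in the light and ZT15, ZT19 and ZT23 in the dark. Between the phases limma called 2 of the 146 genes, both higher in the light phase, where 0.341% of all genes tested were called in either direction and 0.125% as higher in the light. *dyw* was higher by 1.65 ± 0.35 on the log2 scale (SE, adjusted p = 0.0322 in limma) and *CG17298* by 2.67 ± 0.59 (adjusted p = 0.0402 in limma). An unadjusted p under 0.05 was found for 22 members (15.1%, against 8.92% of all genes tested). Of these, 17 were higher in the light (11.6% of the members, against 3.67% of all genes tested). The next smallest adjusted p in limma were 0.0609 for *CG10553*, which was lower in the light by a log2 difference of −0.79, and 0.0968 for *Sclp*, at 1.14.

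Neither call was firm. For *dyw*, leaving out any single one of 11 of the 18 columns took the adjusted p in limma above 0.05, to between 0.0527 and 0.380, and for *CG17298* any one of 13 columns did so, to between 0.0847 and 0.405. With the columns 29°C ZT19 and 25°C ZT7 both removed, no member and no gene at all was called, although 15 members had an unadjusted p under 0.05. The log2 difference stayed positive under every alternative, between 1.26 and 1.94 for *dyw* and between 2.12 and 3.38 for *CG17298*.

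The light-dark difference was also compared between temperatures. In *dyw* the light phase exceeded the dark by 2.85 on the log2 scale at 18°C and by 0.22 at 29°C. In *Cpr50Cb* it exceeded the dark by 3.71 at 18°C and was −1.27 at 29°C, and in *Crys* the values were 0.52 and −1.30. The test of the difference between 29°C and 18°C called none of the 146 genes, with 0.216% of all genes tested called. The smallest adjusted p in limma was 0.0644, for *Cpr50Cb* (−4.99 ± 1.14, SE), and those of *dyw* (−2.63 ± 0.69), *Crys* (−1.83 ± 0.48) and *CAH9* (−1.85 ± 0.48), a carbonic anhydrase, were 0.103. An unadjusted p under 0.05 was found for 26 members (17.8%, against 11.2% of all genes). In 23 of them light minus dark was lower at 29°C than at 18°C (15.8% of the members, against 7.72% of all genes). This need not be a loss of a light excess. In *CG31904* light minus dark was −0.10 at 18°C and −1.59 at 29°C, and in *Acp1* −0.16 and −1.54. Both had their lowest value at 29°C ZT11, a single column. At any p, light minus dark was lower at 29°C in 69.9% of the members and 59.1% of all genes. edgeR and DESeq2 called none of the members, and 11 and 76 genes in all. Leaving out the 29°C ZT3 column raised the members called to 6, of 45 genes in all against 19 with every column, namely *Ccp84Ab*, *CG13722*, *Crys*, *CG5172*, *Cpr50Cb* and *CG8736*, and leaving out the 18°C ZT19 column raised them to 3, of 23 genes in all, namely *Crys*, *dyw* and *Cpr50Cb*.

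**Figure D5:**
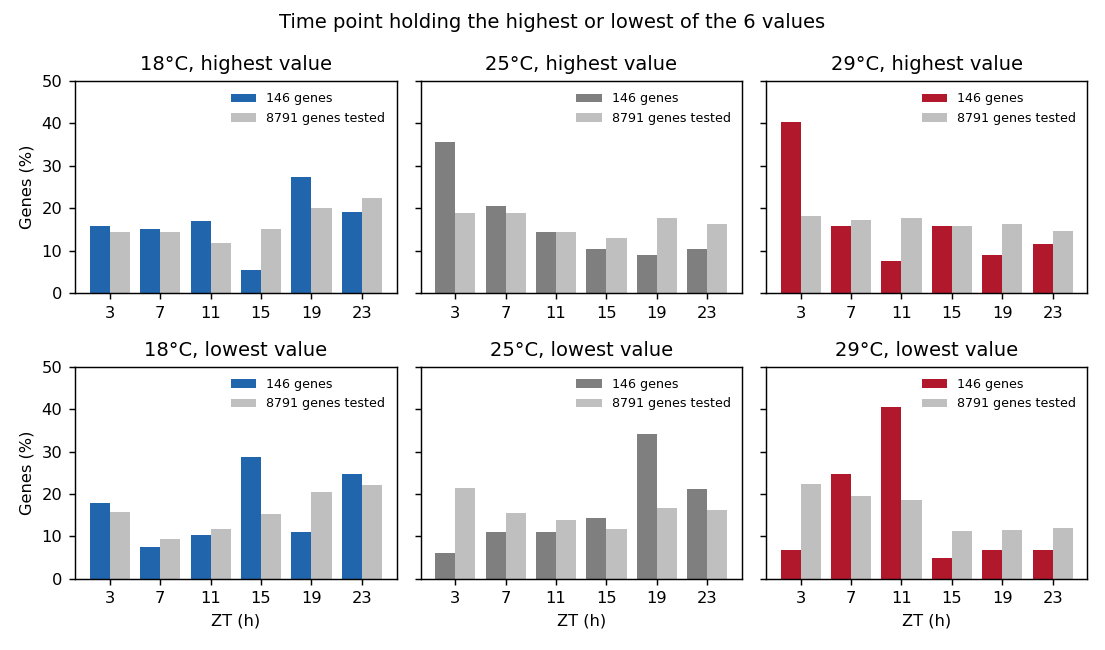
Percentage of genes whose highest (top) or lowest (bottom) of the 6 values at a temperature fell at each ZT, for the 146 genes (coloured at 18°C and 29°C, dark grey at 25°C) and for the 8791 genes tested (light grey). At 29°C the ZT3 column was the highest in 40.4% and the ZT11 column the lowest in 40.4% of the 146 genes.

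The percentages of extreme values show how the members varied among themselves within a temperature. At 29°C, 59 of the 146 genes (40.4%) were lowest at ZT11, against 18.6% of all genes tested, and 59 were highest at ZT3, against 18.1%. At 25°C, 52 genes (35.6%) were highest at ZT3, against 18.9%, and 50 (34.2%) were lowest at ZT19, against 16.6%. At 18°C, 42 genes (28.8%) were lowest at ZT15, against 15.2%, and in 36 genes (24.7%, against 8.11% of all genes) the ZT15 and ZT23 values both lay below the other 4. *dyw*, *CG17298*, *CG34217*, *Cpr50Cb*, *Crys*, *Cht5*, *obst-A*, *obst-B* and *Zasp66* were among these 36. Each time point is a single column, so a daily change and a difference between collections cannot be told apart.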

How the data were processed

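The authors extracted RNA from heads and made 3′ RNA-seq libraries, in which reads lie near the 3′ ends of transcripts. Their processing notes name build dm3, Bowtie2, TopHat and Cufflinks with no role or order. The deposited table holds a normalised signal for 21081 transcripts in 18 columns. Divided by the unit of its column, each value came out whole (100% within 0.001 reads, with departures of at most 1.68e-05), which gave back the reads. How a column was made from 2 libraries is not given in the sources used here. The column ZT19 was taken as the label zt18.

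For each gene the transcript row with the largest summed signal was kept. Coordinates are those of the table, made 1-based. Names came from RefSeq (13634 of 14010 genes). The main test was limma 3.58.1 (trend, R 4.3.3) on log2(signal + 1) with temperature and time point as factors, on genes passing edgeR's filter on recovered reads, with Benjamini-Hochberg adjustment over 8791 genes. A log2 difference on this scale understates the change of low genes. P-values measure only the spread between columns. On simulated counts with 200 genes changed 4-fold, the light-dark test recovered 100% and the test of its difference between temperatures 61.5%. The unchanged genes called were 14 and 7. The simulation had a common spread and no temperature difference, and genes with few reads were not among those changed. These shares thus do not give the recovery for members with few reads at 29°C. edgeR 4.0.16 (quasi-likelihood) and DESeq2 1.42.0 were alternatives.

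The members and gene lists were chosen with earlier results of these data known. Counts over gene lists leave out the members. Genes named were the 10 members with the highest 18°C median, the 10 with the largest 18°C to 29°C ratio, the 12 most abundant members of a gene list, those called in a test, those nearest the limits and those within 10 kb of another member; all others were named by role after their values were seen. The functional groups were also formed after seeing the members. Sequence features were not analysed here.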

Additional observations from a re-analysis of the deposited data

Results flagged for a closer look

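Single columns far from the other 5 of their temperature were sought with Dixon's test in 138 sets of 6 values, those of 29 genes and of the group sums. About 6.9 such cases would arise by chance in independent, normally distributed sets, and 16 were found. The sets were not independent, because group sums contain some of the same genes and all sets share the columns. Some sets at 29°C also held very few reads, which are not normally distributed. Whether the cases exceed chance can therefore not be read from these numbers. Of the 16 cases, 6 were the 29°C ZT3 value of a gene. They were 82.4 normalised reads for *CG34217*, 3.29 for *Fbp2*, 8.24 for *Fbp1*, 3.29 for *CG34205*, 191 for *Cpr100A* and 62.6 for *dyw*. The values of *Fbp2*, *Fbp1* and *CG34205* rest on very few reads. The sum of the storage proteins was also high in that column, at 16.5. At 25°C the ZT3 column stood out for *CG34217* (185), *Cpr100A* (357) and *verm* (86.4). *CG14118* stood out at ZT11, with 28.6 at 25°C and 3.03 at 29°C. *Cpr49Ae* was at 732 at 25°C ZT7, *Fbp1* at 30.7 at 18°C ZT11, and the summed level of the matrix proteins outside the cuticle at 233 at 18°C ZT19. *Peritrophin-A* was the only low case, at 11.4 at 25°C ZT19. No difference between temperatures in the light-dark effect passed its test in the 146 genes.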

How the results depend on the processing

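The number of genes meeting the rule was 250 with a ratio of 1.3, 88 with a ratio of 1.5 and 95 with 5 added to the medians. Under the other settings it was within 1.5 times of 146: 168 after scaling by library size, of which 113 were members, 132 with means, of which 101 were, and 147 without 29°C ZT19 and 25°C ZT7, of which 107 were. Leaving out single columns gave 127 to 165 genes, with 108 to 139 shared. Chosen after seeing the data, the row with most recovered reads gave 145 and the fit without 18°C ZT19 and ZT23 gave 144. For time of day, edgeR called 2 members and DESeq2 2, and leaving out single columns gave 0 to 3, the 3 being *per*, *dyw* and *CG17298* without 29°C ZT23. Between light and dark, 1 member was called with a pseudocount of 5, 1 by DESeq2, and 0 with a pseudocount of 0.1, without a filter on low values, and without 29°C ZT19 and 25°C ZT7; leaving out single columns gave 0 to 3. For the difference of the light effect between temperatures, 1 was called with a pseudocount of 5 and 1 without 18°C ZT19 and ZT23 (added after seeing the data), and leaving out single columns gave 0 to 6. The causes of these shifts were not tested. No paired analysis was possible because the columns carry no replicate numbers.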
